A study of Mus musculus with 20 samples.

Results

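Interleukin-1 (IL-1) family and inflammasome genes were followed in white and brown fat of mice that had lost α4 in adipocytes. They were 10 named genes of the 25219 in the deposited table: the cytokines Il1a, Il1b and Il18, the antagonist Il1rn, the receptors Il1r1 and Il1r2, and the inflammasome genes Nlrp3, Pycard, Casp1 and Casp4. They were taken by name, and all 10 were in the table. RNA was sequenced from inguinal white adipose tissue (iWAT) and brown adipose tissue (BAT) of male mice on a mixed C57Bl/6 background, in 4 groups of 5 libraries. Ai-α4KO mice carried floxed alleles of Igbp1, the gene for the phosphatase regulator α4, and a tamoxifen-inducible Cre (CreERT2) under the Adiponectin promoter, so that only adipocytes were meant to recombine. Control mice, which the labels call WT, carried the floxed alleles without CreERT2. Both genotypes received tamoxifen, 5 injections of 100 mg/kg over 6 days from 2 months of age, and tissue was taken 1 week after recombination. The labels number the libraries 1 to 5 in each group and do not say whether the same mice gave both depots.

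IL-1α and IL-1β both bind the signaling receptor IL-1R1, which recruits MyD88 and IRAK kinases and activates NF-κB. The receptor antagonist encoded by Il1rn occupies the same receptor without signaling, and Il1r2 encodes a decoy that binds IL-1 but cannot signal. IL-1β and IL-18 are made as precursors. A sensor such as NLRP3 assembles with the adaptor ASC, encoded by Pycard, and with caspase-1, which cleaves both precursors, while caspase-11, encoded by Casp4 in the mouse, responds to intracellular lipopolysaccharide and opens the non-canonical route. In adipose tissue some of these genes, such as Il1b and Nlrp3, are known mainly from macrophages, and the family is studied for its effect on insulin action. The libraries measure RNA only, so cleavage and secretion are not seen here.

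All 10 genes were higher in Ai-α4KO than in Control in iWAT and in BAT. Calls rest on the quasi-likelihood test of edgeR with Benjamini-Hochberg correction over every gene tested, and required both an adjusted p under 0.01 and a change of 2-fold or more. The libraries are of whole tissue, so more cells of a type and more RNA per cell cannot be told apart. In iWAT 11.3% of the 14604 genes tested were called higher, and in BAT 18.2% of 14344. The Control and Ai-α4KO libraries of the 10 genes did not overlap in either depot, where 20.7% of all genes in iWAT and 24.7% in BAT were higher without overlap. The median log2 fold change of the 10 genes was 2.38 in iWAT, against 0.01 over all genes tested. In BAT it was 4.07 with Il1a set at its lower bound, against -0.03 over all genes. Fold changes ran from 2.02 for Il1r1 to 31.7 for Il1rn in iWAT and from 2.74 for Il1r1 to 46.1 for Il1b in BAT. The antagonist and the decoy receptor thus rose alongside the cytokine and the signaling receptor that they oppose. Without the Control iWAT libraries 1 and 4, which held far more B cell marker RNA than the other 3, 7 of the 10 were called in iWAT. The calls of Il1a (adjusted p = 0.0147, edgeR), Il1r1 (log2 fold change 0.78) and Il1r2 (adjusted p = 0.0143) were then lost, and the direction of these 3 was the same.

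**Figure D1:**
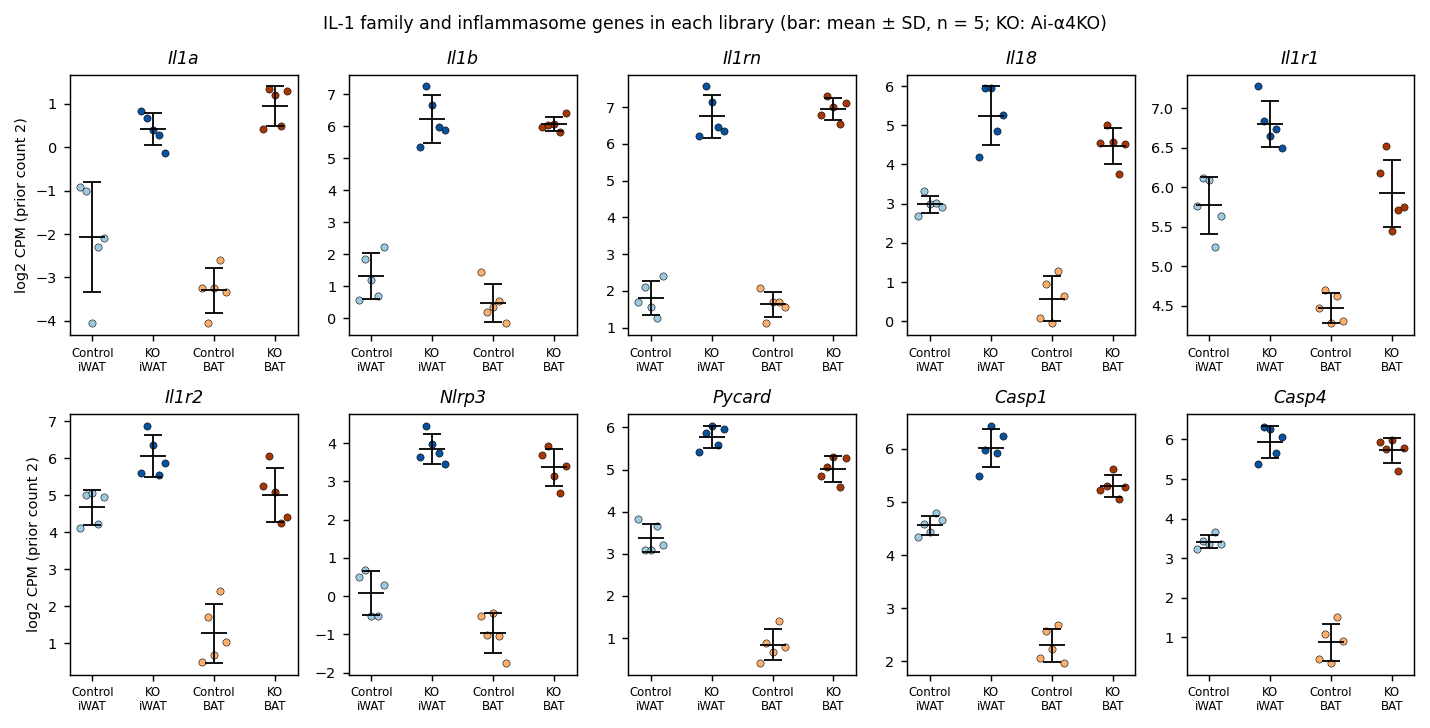
Each panel plots 1 gene as log2 CPM (counts scaled to library size, prior count 2) in the 20 libraries, with 1 point per library and a bar for the mean ± SD of 5. In each of the 10 panels the dark points of Ai-α4KO lie above the pale points of Control in the same depot. For Il1a, Il1b, Il1rn and Nlrp3 the pale points of the 2 depots overlap.

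Each Ai-α4KO library held less Igbp1 RNA than each Control library of its depot, and the recombined allele itself was not measured. Igbp1 was between 57.5 and 76.6 CPM in Control iWAT and between 10.1 and 11.1 CPM in Ai-α4KO iWAT, and between 85.4 and 105 CPM in Control BAT and 13.7 and 25.2 CPM in Ai-α4KO BAT. Its log2 fold change was -2.65 in iWAT (SE 0.094, adjusted p = 4.99e-08) and -2.50 in BAT (SE 0.17, adjusted p = 2.2e-07, edgeR). CPM was put on 1 scale by TMM normalization over the 20 libraries, whose totals ran from 24023371 to 50384446 counts. Summed adipocyte markers lay between 22520 and 30147 CPM in the Control libraries and between 11596 and 16393 CPM in the Ai-α4KO libraries. Brown adipocyte markers summed to 7902 to 12170 CPM in Control BAT and 126 to 940 CPM in Control iWAT, so that the tissue labelled BAT had them at the higher level.

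Il1b encodes the main secreted IL-1 of activated macrophages and lies on chr2:129364580-129371120 (mm10, minus strand). In Control iWAT it measured 1.42, 3.54, 2.25, 1.56 and 4.63 CPM in libraries 1 to 5, and in Ai-α4KO iWAT 40.5, 152, 102, 62.6 and 58.9 CPM. The lowest Ai-α4KO library was thus 8.76-fold above the highest Control library, and Ai-α4KO library 2 stood highest. The log2 fold change was 4.95 (SE 0.47, adjusted p = 1.05e-05, edgeR), which placed Il1b at rank 28 of the 14604 genes. In BAT the Control libraries held 2.64, 1.10, 1.22, 1.41 and 0.836 CPM and the Ai-α4KO libraries 63.3, 65.7, 66.9, 57.0 and 85.5 CPM. Here the Ai-α4KO libraries lay closer together, with a coefficient of variation of 15.8% against 53.5% in iWAT. In BAT it amounted to a log2 fold change of 5.53 (SE 0.28, adjusted p = 5.8e-08), rank 56 of 14344. An antisense gene, Il1bos, overlaps the locus and reached at most 1.03 CPM in any library. Whether the counting used the strand is not given in the sources used here, so reads of the 2 genes may not be separated.

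Il1rn, which encodes the IL-1 receptor antagonist, lies on the same chromosome, on chr2:24336860-24351491. Control iWAT libraries measured 3.20, 4.29, 2.89, 2.34 and 5.28 CPM and Ai-α4KO iWAT libraries 74.7, 189, 140, 87.3 and 81.7 CPM. Library 2 was the highest Ai-α4KO iWAT library for Il1rn, as it was for Il1b. This was a log2 fold change of 4.99 (SE 0.34, adjusted p = 2.53e-06, edgeR), rank 27, next to Il1b in the order of all genes. In BAT the levels were 4.14, 2.11, 3.22, 3.21 and 2.91 CPM in Control and 111, 157, 128, 92.9 and 137 CPM in Ai-α4KO libraries, a log2 fold change of 5.29 (SE 0.22, adjusted p = 3.14e-08). Per transcript length the antagonist and the cytokine were at like levels. The log2 ratio of Il1rn to Il1b in FPKM (fragments per kilobase of transcript scaled to library size, with 0.1 added) had a mean of -0.47 ± 0.37 over the Control iWAT libraries and of -0.50 ± 0.21 over the Ai-α4KO iWAT libraries (SD, n = 5 each). The BAT means were 0.15 ± 0.39 for Control and -0.14 ± 0.23 for Ai-α4KO. The groups overlapped in both depots, so that a shift of the ratio between genotypes was not seen beyond the spread of the libraries.

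The 250 bases before the RefSeq starts of Il1b and Il1rn (GRCm38.p6, the assembly of mm10) are shown because each of these 2 genes was the other's nearest neighbour in variation across libraries, as described further on. The windows are chr2:129371140-129371389 on the minus strand for Il1b and chr2:24336610-24336859 on the plus strand for Il1rn, the start nearest to that of the deposited table of 3 RefSeq starts. Both are written 5′ to 3′ in the direction of the gene.
Il1b: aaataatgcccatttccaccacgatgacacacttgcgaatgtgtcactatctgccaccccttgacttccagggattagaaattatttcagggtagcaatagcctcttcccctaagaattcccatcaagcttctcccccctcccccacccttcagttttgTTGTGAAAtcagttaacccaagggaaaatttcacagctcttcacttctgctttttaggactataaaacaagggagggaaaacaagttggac
Il1rn: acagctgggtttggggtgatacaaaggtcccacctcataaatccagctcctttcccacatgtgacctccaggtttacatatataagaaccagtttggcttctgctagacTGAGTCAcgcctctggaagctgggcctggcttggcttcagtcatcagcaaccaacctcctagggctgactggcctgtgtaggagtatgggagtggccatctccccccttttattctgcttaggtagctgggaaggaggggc
Capitals mark matches to short motifs searched on both strands. In Il1b the capitals are a match to the C/EBP motif TTNNGNAA that begins 91 bases before the start. In Il1rn they are a match to the AP-1 motif TGANTCA that begins 141 bases before the start. Of 32851 promoter windows of this length in the RefSeq table, 36.8% hold TTNNGNAA and 6.75% hold TGANTCA, and a match describes letters and not a bound site.

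Il1a and Il18 complete the cytokines. Il1a, which encodes a cell-associated alarmin, lies near Il1b on chr2:129299610-129309972 and was the lowest of the 10 genes in all 4 groups. It measured 0.466, 0.435, 0, 0.145 and 0.176 CPM in Control iWAT, from at most 22 counts per library, and 1.71, 1.53, 1.26, 1.16 and 0.856 CPM in Ai-α4KO iWAT. Its log2 fold change was 2.36 (SE 0.59, adjusted p = 0.00587, edgeR), the highest adjusted p among the 10 in iWAT. The call was lost in 6 of the 10 fits that left out 1 library, those without Control library 4 or 5 or Ai-α4KO library 1, 2, 3 or 4, with adjusted p from 0.0116 to 0.0188. Each Control BAT library held at most 3 Il1a counts, a number treated as the limit of detection. Ai-α4KO BAT libraries measured 1.27, 2.46, 2.24, 1.35 and 2.39 CPM. Their mean was 15.8-fold above 3 counts per library in Control BAT, which is a lower bound of the change in means. The adjusted p of 2.75e-06 (edgeR) belongs to the fitted change, whose size is not given because Control BAT was at that limit. Per length Il1a stayed far below Il1b. In Ai-α4KO libraries its mean was 0.647 FPKM in iWAT and 0.901 FPKM in BAT, against 61.1 and 46.6 FPKM for Il1b.

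Il18, a cytokine that acts on T and NK cells for interferon-γ production, lies on chr9:50565368-50581837. Control iWAT libraries held 6.44, 9.88, 7.96, 8.01 and 7.47 CPM and Ai-α4KO iWAT libraries 18.3, 62.0, 61.4, 28.6 and 38.5 CPM. The gap between the groups was 1.86-fold, smaller than the spread among the Ai-α4KO libraries. In BAT the values were 1.002, 1.88, 0.906, 2.36 and 1.51 CPM in Control and 23.3, 32.1, 23.5, 13.4 and 23.0 CPM in Ai-α4KO libraries. For Il18 this gave a log2 fold change of 2.39 in iWAT (SE 0.31, adjusted p = 7.98e-05) and 3.86 in BAT (SE 0.30, adjusted p = 6.54e-07, edgeR). Per length Il18 was above Il1b in Control iWAT, at 8.25 ± 1.38 against 1.81 ± 0.944 FPKM, and below it in Ai-α4KO iWAT, at 47.0 ± 21.6 against 61.1 ± 32.3 FPKM (SD, n = 5), where the libraries of both genes overlapped.

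**Figure D2:**
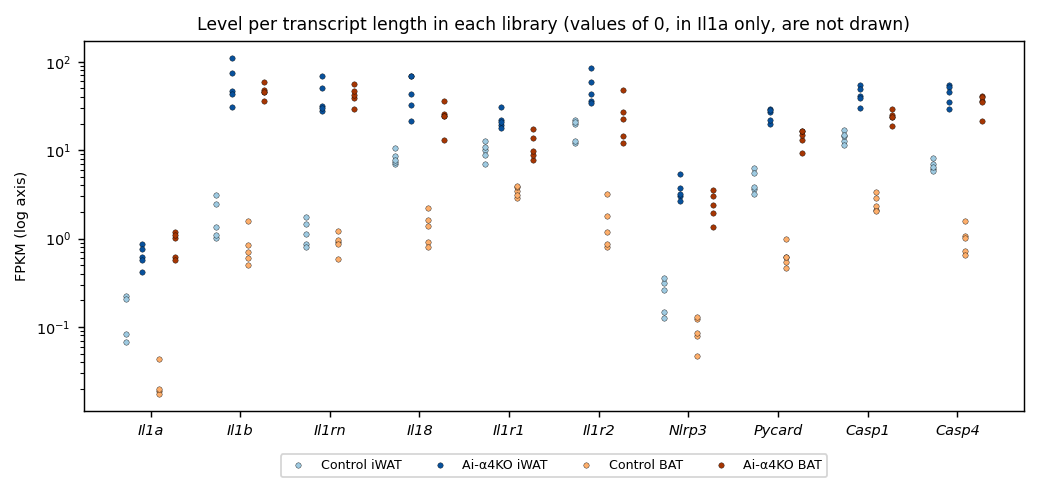
FPKM, a level per transcript length, of each gene in the 20 libraries on a log axis, with 1 point per library and 1 colour per group; values of 0, in Il1a only, are not drawn. Il1r2 had the highest mean in Control iWAT (17.6 FPKM) and Il1r1 in Control BAT (3.44 FPKM), while Il1b had the highest mean in Ai-α4KO iWAT (61.1 FPKM) and Ai-α4KO BAT (46.6 FPKM).

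The receptors had the 2 lowest fold changes of the 10 genes in iWAT. Il1r1 encodes the signaling receptor and Il1r2 the decoy, and the genes are neighbours on chr1:40225080-40316177 and chr1:40084768-40125226. Il1r1 measured 54.1, 69.4, 67.9, 37.8 and 49.8 CPM in Control iWAT and 155, 114, 99.9, 107 and 90.5 CPM in Ai-α4KO iWAT. The log2 fold change of 1.02 (SE 0.19, adjusted p = 0.000934, edgeR) stood at the 2-fold limit, and it fell below that limit under DESeq2 (0.98), under upper-quartile normalization (0.92) and in 4 of the 10 fits without 1 library (0.88 to 0.98 without Control library 1, 4 or 5 or Ai-α4KO library 1). In BAT Il1r1 ran from 19.3 to 25.97 CPM in Control and from 43.5 to 91.7 CPM in Ai-α4KO libraries, a log2 fold change of 1.45 (SE 0.19, adjusted p = 3.44e-05).

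Il1r2 in Control iWAT was 17.4, 32.3, 33.4, 18.5 and 31.2 CPM, with the low values in libraries 1 and 4, and in Ai-α4KO iWAT it was 48.7, 118, 82.5, 46.5 and 58.7 CPM. Its log2 fold change was 1.41 (SE 0.29, adjusted p = 0.00175, edgeR). Control BAT libraries held only 1.37, 3.25, 1.54, 5.33 and 1.99 CPM, and Ai-α4KO BAT libraries 38.0, 66.6, 33.8, 19.02 and 21.4 CPM. The Ai-α4KO values of BAT thus reached the range of Control iWAT, and the log2 fold change was 3.68 (SE 0.45, adjusted p = 2.06e-05). The ratio of decoy to signaling receptor RNA separated the genotypes in BAT, while the iWAT libraries overlapped. The difference between the depots in this ratio was not tested, and how often other pairs of genes separate was not counted. In whole tissue the 2 RNAs need not come from the same cells. In FPKM the log2 ratio of Il1r2 to Il1r1 was -1.26 ± 0.64 in Control BAT against 0.99 ± 0.49 in Ai-α4KO BAT (SD, n = 5 each), without overlap. The iWAT means were 0.81 ± 0.35 for Control and 1.16 ± 0.69 for Ai-α4KO.

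Nlrp3, which encodes the sensor that gives the inflammasome its name, lies on chr11:59542686-59566956. Its Control levels were low, at 1.36, 1.55, 0.639, 0.637 and 1.17 CPM in iWAT and 0.637, 0.430, 0.680, 0.423 and 0.239 CPM in BAT. Ai-α4KO libraries held 12.3, 21.9, 15.7, 13.3 and 10.9 CPM in iWAT and 12.7, 15.004, 8.76, 6.40 and 10.6 CPM in BAT. The lowest Ai-α4KO library was 7.01-fold above the highest Control library in iWAT and 9.42-fold in BAT. The change of Nlrp3 on the log2 scale was 3.77 (SE 0.32, adjusted p = 5.44e-06) in iWAT and 4.44 (SE 0.32, adjusted p = 3.54e-07, edgeR) in BAT. Despite this rise Nlrp3 stayed, after Il1a, the second lowest of the 10 genes per length, with 3.60 ± 1.03 FPKM in Ai-α4KO iWAT and 2.46 ± 0.879 FPKM in Ai-α4KO BAT (SD, n = 5).

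Pycard, which encodes the adaptor ASC, lies on chr7:127991373-127993867. It measured 14.1, 8.45, 8.53, 12.6 and 9.12 CPM in Control iWAT and 42.5, 58.7, 65.2, 48.0 and 62.7 CPM in Ai-α4KO iWAT. In BAT it went from between 1.28 and 2.61 CPM in Control to between 23.8 and 39.2 CPM in Ai-α4KO libraries. The log2 fold changes were 2.38 (SE 0.19, adjusted p = 4.03e-06) and 4.15 (SE 0.23, adjusted p = 6.5e-08, edgeR). In the order of means Ai-α4KO iWAT was highest, then Ai-α4KO BAT, Control iWAT and Control BAT, and neighbours in this order did not overlap. How many of all genes had 4 separate groups was not counted, so this only describes the levels of Pycard.

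Casp1 and Casp4 encode the canonical and the non-canonical inflammasome caspase and are neighbours on chr9:5298517-5307281 and chr9:5308860-5336791. Casp1 had 20.2, 24.0, 21.6, 27.7 and 25.1 CPM in Control iWAT and 44.8, 62.9, 86.5, 60.3 and 76.0 CPM in Ai-α4KO iWAT, a log2 fold change of 1.47 (SE 0.17, adjusted p = 3.11e-05, edgeR). In BAT it rose from 4.10, 5.87, 4.62, 6.35 and 3.86 CPM to 37.5, 39.5, 49.4, 33.3 and 38.9 CPM, a log2 fold change of 2.97 (SE 0.18, adjusted p = 1.03e-07). Casp4 had the larger fold change of the pair in each depot. It measured 9.36, 10.8, 10.3, 12.7 and 10.2 CPM in Control iWAT and 41.9, 80.0, 77.4, 50.9 and 67.0 CPM in Ai-α4KO iWAT, and its log2 fold change was 2.57 (SE 0.18, adjusted p = 3.18e-06). Control BAT libraries held 1.32, 2.07, 1.22, 2.82 and 1.83 CPM of Casp4 and Ai-α4KO BAT libraries 61.4, 53.7, 63.5, 36.5 and 54.9 CPM, a log2 fold change of 4.81 (SE 0.25, adjusted p = 5.83e-08). Per length Casp1 was above Casp4 in Control, at 14.1 ± 2.14 against 6.71 ± 0.949 FPKM in iWAT and 2.54 ± 0.561 against 1.01 ± 0.368 FPKM in BAT. In Ai-α4KO iWAT the 2 caspases were at 42.7 ± 9.81 and 43.3 ± 10.9 FPKM, and in Ai-α4KO BAT Casp4 was the higher, at 34.6 ± 7.71 against 24.0 ± 3.81 FPKM (SD, n = 5). The difference between the 2 genes was not tested.

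The promoter windows of the sensor Nlrp3 and of Casp4, the caspase with the larger fold change, are shown next. They are chr11:59542436-59542685 and chr9:5308610-5308859, both on the plus strand, each the nearer of 2 RefSeq starts to that of the deposited table.
Nlrp3: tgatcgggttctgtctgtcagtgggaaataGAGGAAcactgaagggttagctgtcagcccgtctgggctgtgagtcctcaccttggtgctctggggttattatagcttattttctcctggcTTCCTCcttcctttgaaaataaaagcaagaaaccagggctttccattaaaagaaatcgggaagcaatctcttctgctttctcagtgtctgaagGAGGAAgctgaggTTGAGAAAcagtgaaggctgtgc
Casp4: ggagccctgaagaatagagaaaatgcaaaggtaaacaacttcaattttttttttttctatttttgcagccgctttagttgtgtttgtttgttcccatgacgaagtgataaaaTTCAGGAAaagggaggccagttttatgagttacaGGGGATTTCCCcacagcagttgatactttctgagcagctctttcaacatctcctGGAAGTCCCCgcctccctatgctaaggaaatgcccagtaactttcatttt
In Nlrp3 the capitals mark the PU.1 motif GAGGAA at 220, 129 and 36 bases before the start, the one at 129 on the opposite strand, and TTNNGNAA at 23 bases. In Casp4 they mark overlapping matches to the NF-κB consensus that begin 104 and 103 bases before the start, another at 50 bases on the opposite strand, and TTNNGNAA at 138 bases. For Il18 and Il1r2 the nearest RefSeq start lay 10668 and 1325 bases from the table's start, and their windows held none of the motifs. Over the windows nearest to the table's starts, 1 of the 10 genes held the NF-κB consensus, Casp4, where 7.25% of all promoter windows did. Over every window of a gene it was 3 of the 10, with the second windows of Nlrp3 and Il1r1, against 8.23% of the 27025 genes with a window. The AP-1 motif was in 2 of the 10 windows, Il1a and Il1rn, and the interferon-stimulated response element in 0 of 10, against 6.75% and 2.98% of all windows. TTNNGNAA was in 6 of 10 and GAGGAA, searched for PU.1, in 4 of 10, against 36.8% and 23.3% of all windows. GAGGAA and TTNNGNAA can overlap, as they do in Il1a.

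The genotype effect differed between the depots for some of the genes. An interaction term, fitted over all 20 libraries, tested this difference. It was higher in BAT at an adjusted p below 0.01 for 3.26% of 15230 genes, and 4 of the 10 genes were among them. The effect of α4 loss in BAT exceeded that in iWAT by 2.28 on the log2 scale for Casp4 (SE 0.30, adjusted p = 0.000233, edgeR), by 1.80 for Pycard (SE 0.28, adjusted p = 0.000657) and by 1.52 for Casp1 (SE 0.24, adjusted p = 0.000679). It exceeded it by 2.30 for Il1r2 (SE 0.55, adjusted p = 0.00966), a call that was lost in 15 of the 20 fits without 1 library, with adjusted p up to 0.0211. Over these 20 fits the difference of Il1r2 ran from 2.06 to 2.71. The call was kept only without Control iWAT library 1, Ai-α4KO iWAT library 2, Control BAT library 4 or Ai-α4KO BAT library 4 or 5. For Il18 the difference was 1.502 (SE 0.44) and did not pass (adjusted p = 0.0273). Il1b, Il1rn, Il1r1 and Nlrp3 differed by 0.60, 0.34, 0.47 and 0.70 between the depots, with adjusted p from 0.263 to 0.562. The difference of Il1a did not pass (adjusted p = 0.0279), and no size is given because Control BAT was at the limit of detection. It passed without Control iWAT library 3 (adjusted p = 0.00467) and in DESeq2 (adjusted p = 0.00549). Each of the 4 genes called in the interaction was lower in Control BAT than in Control iWAT. In Ai-α4KO the depots overlapped for Casp4, Casp1 and Il1r2 and did not for Pycard, and the Ai-α4KO mean was higher in iWAT for all 4. Of the 9 macrophage markers described further on, 6 were also called higher in this interaction, and 9 were called lower in Control BAT than in Control iWAT; their part in the difference was not tested.

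**Figure D3:**
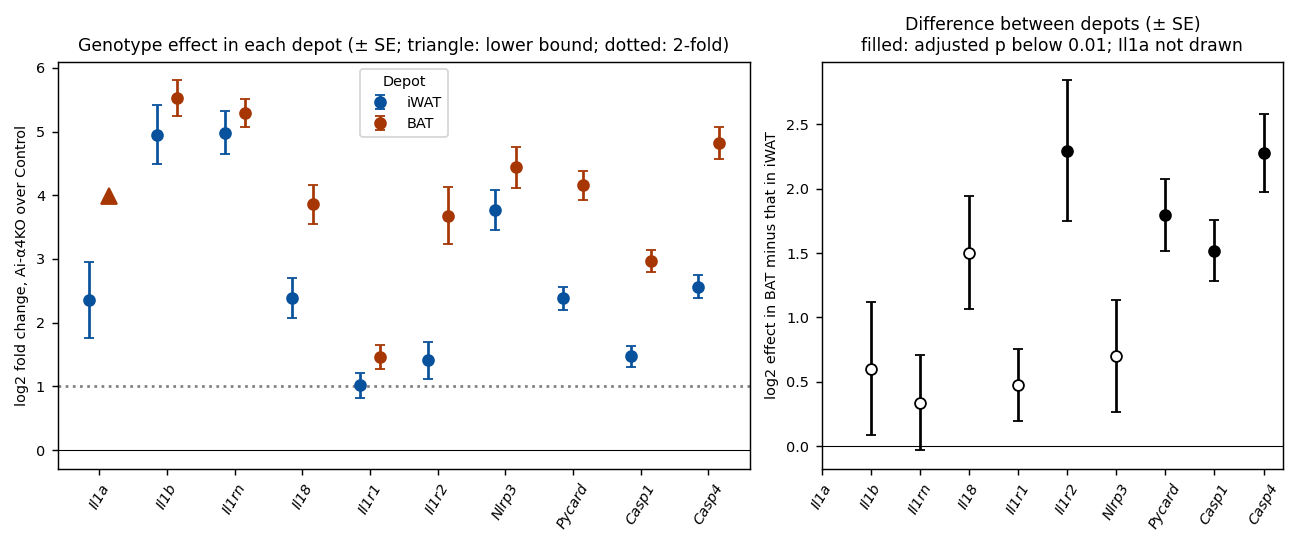
Left, log2 fold change of Ai-α4KO over Control with its SE in iWAT (blue) and BAT (brown), with a triangle for the lower bound of Il1a in BAT. Right, the effect in BAT minus that in iWAT with its SE, filled for Il1r2, Pycard, Casp1 and Casp4, which passed an adjusted p of 0.01.

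The Control depots differed from each other too. Of the 9 genes that could be tested between Control BAT and Control iWAT, 6 were lower in BAT, where 14.7% of 14260 genes were called lower. These 6 did not overlap between the depots, against 19.5% of all genes lower in BAT without overlap. The log2 fold change of BAT over iWAT was -3.33 for Il1r2 (SE 0.38), -2.60 for Pycard (SE 0.24), -2.55 for Casp4 (SE 0.23), -2.41 for Il18 (SE 0.27), -2.29 for Casp1 (SE 0.16) and -1.36 for Il1r1 (SE 0.17), with adjusted p of at most 6.89e-05 (edgeR). Il1b (-0.93, adjusted p = 0.0775), Il1rn (-0.24, adjusted p = 0.474) and Nlrp3 (-1.20, adjusted p = 0.0183) did not pass, and their depots overlapped. These comparisons share the Control libraries with those of genotype. With library size alone as the scaling, the median of all genes moved to -0.20 between the depots and to 0.13 and 0.23 between genotypes in iWAT and BAT.

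Within groups, the 10 genes did not vary as 1 block. Deviations of log2 CPM from the group mean were correlated over the 20 libraries among the 13101 genes with a mean log2 CPM of at least 0, which leaves out Il1a. These are descriptions, since libraries share depth and composition. Il1b and Il1rn were each other's nearest gene of all those compared, with a Pearson r of 0.858. Il18 and Casp4 were also each other's nearest gene, with r = 0.904. Il1r2 was close to Il18 (r = 0.818), and Casp1 and Pycard had Casp4 as their nearest of the 10, with r of 0.761 and 0.722. Nlrp3 was nearest among the 10 to Il1rn (r = 0.682) and stood at 0.0022 to Casp4. Il1r1 stood apart, with a highest r of 0.484, to Il1r2, and -0.327 to Casp1. The nearest gene of all was Colec12 for Il1r1 (r = 0.853), Cd163 for Il1r2 (r = 0.896), Gm5150 for Nlrp3 (r = 0.859), Coro2a for Pycard (r = 0.896) and Slc25a24 for Casp1 (r = 0.884).

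**Figure D4:**
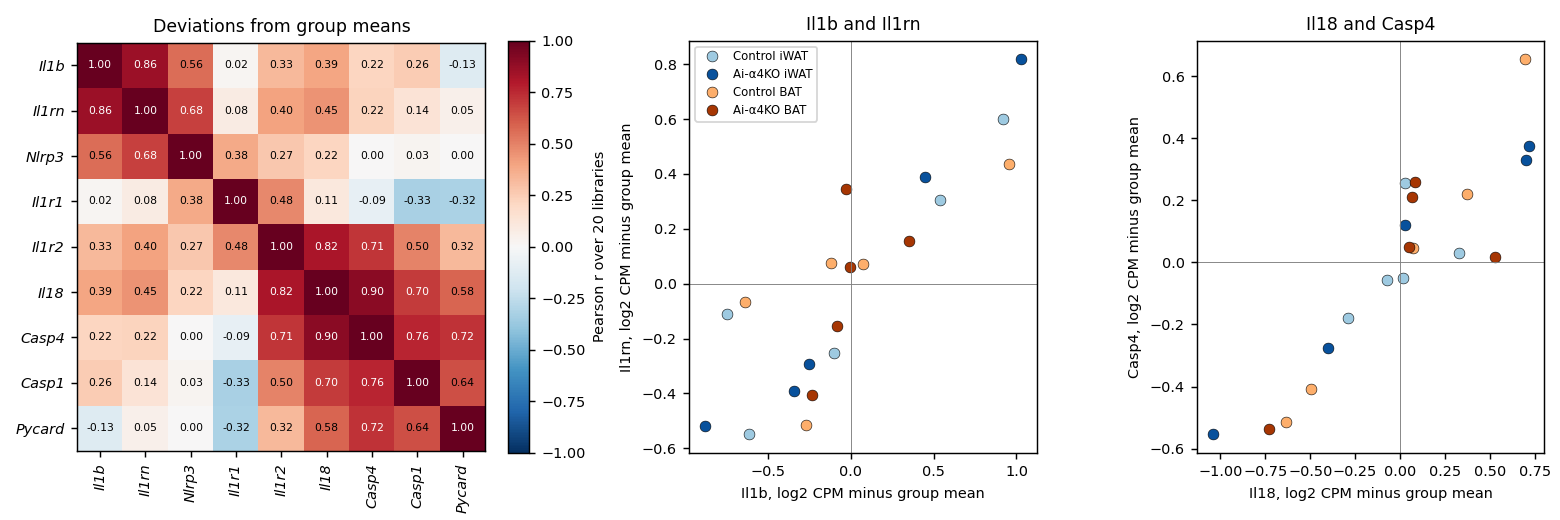
Left, Pearson r between deviations of log2 CPM from group means over 20 libraries for 9 genes, as a colour and a number. Centre and right, these deviations for Il1b against Il1rn (r = 0.858) and Il18 against Casp4 (r = 0.904), with 1 point per library and colours for the 4 groups.

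Markers of leukocytes moved with genotype as well. Of all genes, 11.3% were called higher and 10.7% lower in iWAT, and 18.2% and 13.3% in BAT. Of 9 macrophage markers in the table, such as Csf1r and Cd68, 8 were called higher in iWAT and 9 in BAT. Without Control iWAT libraries 1 and 4 it was 7 in iWAT, where Csf1r lost its call. The summed level of the 9 markers was 1277 to 2173 CPM in Control and 7798 to 10456 CPM in Ai-α4KO iWAT, and 261 to 587 CPM in Control and 4498 to 7501 CPM in Ai-α4KO BAT. Of the neutrophil markers, 4 of 8 tested were called higher and 1 lower in iWAT and 6 of 6 higher in BAT. Their sums were 40.7 to 175 and 179 to 538 CPM in iWAT, and 14.7 to 41.97 and 212 to 398 CPM in BAT, in the same order. S100a8 and S100a9 had the highest means, and Mpo, Elane and Ngp, genes of neutrophil granules, averaged at most 0.352 CPM in the Ai-α4KO groups. Elane was the neutrophil marker called lower in iWAT, where Control libraries held 1.18 to 10.4 CPM of it. The part of these cells in the changes of the 10 genes was not tested.

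Set against the mean log2 CPM of the 9 macrophage markers in the same library, the 10 genes did not move alike. Il1b was higher relative to the markers, with means of -5.35 ± 0.65 in Control against -2.39 ± 0.65 in Ai-α4KO iWAT, and -3.92 ± 0.77 against -1.83 ± 0.36 in BAT (SD, n = 5 each), without overlap. For Il1rn the means were -4.85 ± 0.33 against -1.87 ± 0.47 in iWAT and -2.76 ± 0.62 against -0.96 ± 0.22 in BAT, again without overlap. Nlrp3 was higher relative to the markers without overlap in iWAT, by 1.81, and Casp4 in BAT, by 1.36, and the difference between depots in these relative levels was not tested. This made 3 of the 10 genes higher without overlap in each depot, where 0.924% of all genes in iWAT and 0.969% in BAT were. Il1r1 was lower relative to the markers without overlap, by -0.93 in iWAT and -2.06 in BAT, as were 83.0% and 88.7% of all genes, so that this is the common state and not a result about Il1r1. The other genes overlapped in each depot. Relative to the neutrophil markers, 5 of the 10 in iWAT and 7 in BAT were higher without overlap, against 2.2% and 2.61% of all genes. None of the 10 was lower without overlap there, against 1.66% and 76.6% of all genes. These counts depend on Mpo, Elane and Ngp, which were too low to be tested in 1 depot or in both. Elane among them was called lower in iWAT. The mean of the 9 markers rose by 0.79 in iWAT and 2.27 in BAT, and that of the 6 tested in both depots by 1.95 and 3.43. Relative to those 6, a choice made after the values were seen, 3 genes were higher without overlap in iWAT (Il1b, Il1rn and Nlrp3) and 4 in BAT (these and Casp4), against 0.63% and 0.753% of all genes. Il1r1 was then lower in BAT, and 0 of the 10 in iWAT, against 86.5% and 61.0% of all genes.

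Among other lists, T cell markers were called higher for 0 of 7 in iWAT and 5 of 7 in BAT and fibroblast markers for 0 and 3 of 7, with 0 lower. The T cell count in iWAT depended on Control iWAT libraries 1 and 4, in which these markers summed to 227 and 246 CPM, against 8.53 to 11.5 CPM in the other 3 Control and 16.2 to 57.1 CPM in the 5 Ai-α4KO libraries. Without those 2 libraries 2 of 7 were called higher, Cd4 and Cd28. Dendritic cell markers were called higher for 1 of 6 in iWAT, and for 5 of 6 in BAT, where Zbtb46 was lower. Of all genes, 11.3% were called higher and 10.7% lower in iWAT, and 18.2% and 13.3% in BAT, so that 1 of 6 is near the share. Mast cell markers were called higher for 0 of 5 in iWAT and 4 of 5 in BAT, and Kit was lower in both depots. Endothelial markers were lower for 3 of 5 in each depot, adipocyte markers for 6 of 8, and brown adipocyte markers for 5 of 6 in iWAT and 2 of 6 in BAT. B cell markers summed to 502 and 195 CPM in Control iWAT libraries 1 and 4 and to between 6.71 and 15.6 CPM in the other iWAT libraries, and they were called lower for 1 of 7 in iWAT and higher for 2 of 4 in BAT. Without Control iWAT libraries 1 and 4 none was lower and 1 of 7 was higher in iWAT, Cd22, and the median log2 fold change of the list went from -3.25 to 0.55. Skeletal muscle markers were called for 0 of 8 in iWAT and higher for 6 of 8 in BAT, at 875 to 9156 CPM in Control and 12576 to 41244 CPM in Ai-α4KO BAT. With a muscle score as a covariate all 10 genes were still called in BAT, while 7 genes of the pathway lists given next lost their call there, among them Il1rl1, Il18r1 and Txnip (adjusted p of 0.0329, 0.0101 and 0.0187). Their log2 fold changes with that covariate were 1.496, 2.10 and -1.64, against 1.95, 1.60 and -1.67 without it, and the SE was larger for each, at 0.51, 0.56 and 0.49 against 0.35, 0.37 and 0.32. Of the other lost genes, Nlrc3 went from 2.87 to 1.57 and Naip1 from 3.31 to 2.41 with the covariate. Irgm1 went from 1.41 to 1.18 and Dfna5 from 2.37 to 2.34. Marker calls in BAT fell in that fit as well, with 8 macrophage, 4 neutrophil, 3 T cell, 3 dendritic cell, 3 mast cell, 1 B cell and 1 fibroblast marker called higher, 5 adipocyte markers lower, and Zbtb46 no longer called. Keratinocyte and mammary epithelium markers were called for 0 of 4 in iWAT and 1 of 1 in BAT. They summed to 59.3 and 22.7 CPM in Control iWAT libraries 1 and 4 and to 49.8 and 104 CPM in Ai-α4KO iWAT libraries 1 and 2, against 1.01 to 5.67 CPM in the other 6. Ai-α4KO library 2, with the 104 CPM, was also the highest of its group for 6 of the 10 genes, Il1b, Il1rn, Il1r2, Il18, Nlrp3 and Casp4. Without these 4 libraries 7 of the 10 genes were called in iWAT, among them Il1b (4.33), Il1rn (4.55) and Nlrp3 (3.47), and not Il1a (adjusted p = 0.0260, edgeR), Il1r1 (0.59) or Il1r2 (0.88).

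Other genes of the pathway were read from 5 lists drawn up by function. Beside their counts stand the shares of all genes, 11.3% called higher and 10.7% lower in iWAT and 18.2% and 13.3% in BAT. Of 6 IL-1 and IL-18 receptor chains tested in each depot, 3 were higher in iWAT (Il18rap, Il1rap and Il1rl1) and 4 in BAT (these and Il18r1), and 0 were lower. Il18rap, the accessory chain of the IL-18 receptor, had the largest change of the list, from 2.02 to 4.47 CPM in Control to 13.97 to 47.7 CPM in Ai-α4KO iWAT (log2 fold change 3.13, SE 0.35), and from 0.408 to 1.23 CPM to 8.17 to 21.6 CPM in BAT (4.57, SE 0.36). Il1rap, the chain that IL-1R1 needs to signal, had means of 7.40 ± 1.49 and 25.97 ± 6.996 CPM in Control and Ai-α4KO iWAT, and of 5.61 ± 0.933 and 17.7 ± 3.81 CPM in the BAT groups (SD, n = 5). Of the other ligands and binding proteins, 3 could be tested, and Il1f9, which encodes IL-36γ, and Il33 rose in both depots. Il18bp, which encodes a soluble IL-18 inhibitor, had a log2 fold change of 1.03 (SE 0.15) in iWAT and of 0.83 (SE 0.17) in BAT, which is under the 2-fold limit, and the depots differed by -0.17 (SE 0.23, adjusted p = 0.642). Il1f9 had the largest change, with log2 fold changes of 3.01 (SE 0.59) and 5.27 (SE 0.36). Its call in iWAT was lost without Control iWAT libraries 1 and 4 and Ai-α4KO iWAT libraries 1 and 2 (2.07, adjusted p = 0.0223, edgeR). Il1f5, Il1f6, Il1f8 and Il1f10 held at most 3 counts in every library.

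Of 19 inflammasome sensors and regulators tested, 14 were higher in iWAT, and 15 were higher and 1 lower in BAT. Without Control iWAT libraries 1 and 4 it was 13 in iWAT, where Nlrp10 (0.90, adjusted p = 0.0273) and Nlrp12 (2.44, adjusted p = 0.0137, edgeR) lost their call and Nlrc3 gained one. The median log2 fold change was 1.78 and 2.98, against 0.01 and -0.03 over all genes. Mefv, which encodes pyrin, had the largest change in each depot, from between 0.665 and 2.08 CPM to between 8.57 and 24.4 CPM in iWAT (log2 fold change 3.58, SE 0.41) and from between 0.0398 and 0.364 CPM to between 8.56 and 19.3 CPM in BAT (6.17, SE 0.40). The gene that was lower in BAT was Txnip, which encodes a protein that can bind NLRP3, at -1.67 (SE 0.32), against -0.94 (SE 0.39, adjusted p = 0.0591) in iWAT. Nek7, a kinase that NLRP3 requires, was at 92.7 ± 6.45 and 103 ± 8.08 CPM in Control and Ai-α4KO iWAT and at 100.4 ± 18.6 and 97.8 ± 10.9 CPM in BAT and was not called. Naip1, Naip2, Naip5 and Naip6, and likewise Nlrp1a and Nlrp1b, are close copies between which reads may be split.

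Of the genes of pyroptosis and cytokine processing, 12 were tested in iWAT, where 6 were higher and 2 lower, and 11 in BAT, where 6 were higher and 0 lower. The 2 lower of 12 are near the 10.7% of all genes called lower in iWAT. The largest changes were those of Elane in iWAT and Casp12 in BAT. In iWAT the log2 fold change of Elane, neutrophil elastase, was -4.30 (SE 0.81), from 10.4, 1.18, 1.54, 1.27 and 1.49 CPM in Control to at most 0.343 CPM in Ai-α4KO libraries. Without Control library 1 it was -3.14 (adjusted p = 0.000382, edgeR), and the call was lost in limma on log2(FPKM + 1), at -1.45 (adjusted p = 0.0115), while DESeq2 gave it no adjusted p. Casp12, which lies in the same caspase family, rose from between 5.10 and 21.4 CPM to between 51.2 and 107 CPM in BAT (log2 fold change 2.75, SE 0.33). Gsdmd, whose product forms the pore of pyroptosis after cleavage by caspase-1 or caspase-11, rose in both depots, with means of 18.8 ± 3.71 and 56.1 ± 5.84 CPM in Control and Ai-α4KO iWAT and of 7.12 ± 1.06 and 29.99 ± 6.14 CPM in the BAT groups (SD, n = 5). Receptor-proximal signaling genes had the smallest median change of the 5 lists. Of 13 tested in each depot 2 were higher, Myd88 and Irak3, and 1 was lower, Peli2. These counts are near what all genes gave, with 11.3% called higher and 10.7% lower in iWAT and 18.2% and 13.3% in BAT, and the median log2 fold change was 0.17 in iWAT and -0.03 in BAT. Without Control iWAT libraries 1 and 4 Irak3 fell under the 2-fold limit in iWAT (0.93), which left 1 higher. Myd88, the adaptor of IL-1R1, rose from between 30.2 and 40.6 CPM to between 107 and 145 CPM in iWAT (log2 fold change 1.75, SE 0.12), and Peli2, an E3 ligase of the IRAK pathway, fell by 1.69 on the log2 scale in BAT (SE 0.12), from between 54.8 and 71.0 CPM to between 18.1 and 23.8 CPM. Il1rap, Il1rl1, Il18r1, Il33, Il18bp, Txnip, Nek7, Gsdmd and Irak3 were named after their values were seen. So were Zbtb46, Kit, Cd4, Cd22, Cd28, Nlrp10, Nlrp12, Nlrc3, Naip1, Irgm1 and Dfna5.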

How the data were processed

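RNA-seq libraries of iWAT and BAT were compared between Control and Ai-α4KO mice, 5 libraries per group. The libraries were stranded, poly(A)-selected and read in pairs. The submitters' processing notes name bcl2fastq 2, STAR 2.5.3a and mm10; the counting tool and the annotation release are not given in the sources used here. The authors deposited an expected count per gene and library, not normalized, of which 76.7% of the nonzero values were whole, and an FPKM value, the count per transcript width and library total. The listed genes held 84.8% to 90.9% of that total.

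After rounding, the expected counts entered edgeR 4.0.16 under R 4.3.3 (filterByExpr, TMM, glmQLFit, glmQLFTest, Benjamini-Hochberg adjustment over all genes tested). Genotypes and Control depots were fitted with the 2 groups compared, and the interaction with all 20 libraries. Levels are CPM on 1 TMM scale over the 20 libraries, and standard errors came from the F statistic. Ratios used FPKM with 0.1 added. Genes at 3 counts or fewer in every library of a group were treated as at a floor that covers counting error only. The methods were tested on simulated data. Nothing in the labels says that libraries of a group came from separate animals, so p-values measure the spread between libraries. The 10 genes and the lists (17 lists, 154 entries, 9 not in the table, 4 of these newer names of Il1f genes) were chosen with earlier results of these data known. Named genes are the 10, Igbp1, the gene of largest change called in each pathway list and depot, and the gene nearest to each of the 10. Alternatives were DESeq2 1.42.0, limma 3.58.1 on log2 FPKM, other normalizations, filters and thresholds, 1 fit of all libraries, a replicate block, marker scores as covariates, other pseudocounts of the ratios, and leaving out libraries. Promoter windows came from the RefSeq table of GRCm38.p6, in which all 10 genes matched. The NF-κB consensus and the interferon-stimulated response element were searched by their usual consensus.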

Additional observations from a re-analysis of the deposited data

Results flagged for a closer look

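For 4 genes the effect of α4 loss differed between the depots by a test of the difference itself (edgeR's quasi-likelihood test of the interaction, adjusted p below 0.01). The effect in BAT minus that in iWAT was 2.30 on the log2 scale for Il1r2, 1.80 for Pycard, 1.52 for Casp1 and 2.28 for Casp4. The call of Il1r2 (adjusted p = 0.00966) was lost in 15 of the 20 fits without 1 library. Each Ai-α4KO library was above each Control library of its depot for these 4 genes, 5 of 5 in iWAT and in BAT. Their Control levels were lower in BAT, as given above. The groups of the 10 genes, 40 in all, were searched for a library far from the other 4 (Dixon's critical value 0.71), and 0 were found, where chance marks about 1 group in 20.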

How the results depend on the processing

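The number of the 10 genes called higher was 8 to 10 in iWAT and 10 in BAT with each library left out in turn, 3 to 4 in the interaction and 6 called lower in Control BAT. Under limma on log2(FPKM + 1) 2 were called in the interaction, without Pycard and Il1r2, and the difference of Nlrp3 turned to -0.24 (adjusted p = 0.5); the cause was not tested. In iWAT the call of Il1a was also lost without a filter on low counts (adjusted p = 0.0114), and Il1a fell under the 2-fold limit in limma on log2(FPKM + 1), at 0.56 in iWAT and 0.88 in BAT. Il1r1 in iWAT fell to 0.89 with a B cell score as a covariate, and without the Control iWAT library 4 and the Ai-α4KO iWAT library 1, which held the most muscle marker RNA there, 8 genes were called (chosen after seeing the data, as were leaving out Control iWAT libraries 1 and 4, and these with Ai-α4KO iWAT libraries 1 and 2). Each of the latter left 4 calls in the interaction, and the first left 6 between Control depots. In DESeq2 6 of the 10 genes passed in the interaction, with Il18 (adjusted p = 0.00412) and Il1a (adjusted p = 0.00549) added. Between Control depots Nlrp3 passed with library size alone (adjusted p = 0.00857), which made 7 lower. In 1 fit of all libraries 8 were lower, with Nlrp3 (adjusted p = 0.00655) and Il1a (adjusted p = 0.0096), which the fit of the 2 groups did not test. The ratio of Il1a to Il1b moved with the pseudocount, from -3.10 to -2.10 in iWAT at 0.01 FPKM and from -2.68 to -0.81 at 0.01 and -3.81 at 1 FPKM in BAT, and is not interpreted. With a replicate block 10, 10, 4 and 6 genes were called in iWAT, BAT, the interaction and between Control depots. Libraries of 1 number were not taken as pairs, since the correlations of their deviations ran from -0.45 to 0.13 between genotypes in iWAT, from -0.15 to 0.22 in BAT, and between depots from -0.08 to 0.22 in Control and from -0.27 to 0.24 in Ai-α4KO; whether the same mice gave both depots stays unknown. Counts of 3 or fewer limit Il1a in Control BAT.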
